A study of Mus musculus with 47 samples.

Results

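The 9 transcription factors Nr1h3, Id3, Id1, Spic, Maf, Sall1, Zeb2, Irf7 and Runx1 were followed in bulk RNA-seq of liver, lung and brain from mouse embryos at E18.5. They were chosen by gene symbol as regulators of macrophage identity, and are 9 of the 20456 genes in the count table. All 9 passed the filter on low counts. The embryos, of strain C57BL/6, came from intercrosses of mice heterozygous for 1 of 2 knock-in point mutations of Daxx, a histone chaperone. The Y130A mutation disrupts the binding of Daxx to Atrx, and the S226A mutation the binding of Daxx to the histone variant H3.3. The study also found more Daxx protein with Y130A and less with S226A, in embryonic fibroblasts and E18.5 lung, most clearly in fibroblasts. Homozygous S226A/S226A embryos (4 per tissue) were compared with their wild-type littermates (4 per tissue). Homozygous Y130A/Y130A embryos (4 per tissue) were compared with the wild-type littermates of their own litters (4 livers, 3 lungs and 4 brains). Both alleles are constitutive, so that every cell of a mutant embryo carries the mutation, and silent mutations were introduced beside it. The question addressed was how the loss of either interaction changes the transcriptome of embryonic tissues.

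Tissue-resident macrophages are seeded in the embryo and take on the features of their organ through combinations of transcription factors. Nr1h3 encodes the oxysterol receptor LXRα, Spic an ETS factor of macrophages that recycle the iron of red cells, Maf a large MAF factor, and Id3 and Id1 inhibitors of basic helix-loop-helix proteins; all are used by Kupffer cells, the macrophages of the liver, or their precursors. Sall1 is a defining factor of microglia and is also made by parenchymal cells of several organs. Zeb2 is a zinc finger repressor of macrophages, endothelium and neurons. Irf7 is the interferon-inducible factor that amplifies type I interferon, and Runx1 is the master regulator of definitive haematopoiesis. Since bulk tissue was sequenced, fewer cells of a type and less RNA per cell cannot be told apart.

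The total count per library lay between 15722147 and 26190403 in the S226A litters and between 36351738 and 54885020 in the Y130A litters, so that low genes were measured more precisely in the latter. Pairs of replicates differed by more than sampling noise, with a chi-square per degree of freedom of at least 3.82. The wild-type liver of litter 2881 (S226A litters) and the Y130A liver of litter 2848 held transcripts of squamous epithelium. Summed over the markers, they stood at 1169 and 761 CPM, against at most 10.3 in the other livers. CPM are counts scaled to the effective library size, which is the total over the genes tested, adjusted by edgeR's TMM factors. The tissue labels fitted the marker genes: summed markers of hepatocytes lay between 151739 and 231508 CPM in livers, those of lung epithelium between 7654 and 12469 CPM in lungs, and neural markers between 5821 and 7155 CPM in brains. Each gene was tested with edgeR's quasi-likelihood test, and a gene passed at a Benjamini-Hochberg adjusted p below 0.05. A stringent call needed an adjusted p below 0.01, a standard error (SE) below 1 and a log2 fold change above 1 or below -1. Values are normalized counts, which are read counts scaled to a common library size.

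In livers of S226A embryos, 3 of the 9 factors fell (Maf, Zeb2 and Spic), and none rose. Of all 16892 genes tested, 11.7% passed in this comparison, and 5.54% passed with lower counts. The median log2 fold change of the 9 factors was -0.25, against -0.01 over all genes. None of the 9 met the stringent criteria, which 2.1% of all genes met.

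Maf had the clearest decrease. In the 4 wild-type livers it was counted at 1472, 1542, 1739 and 1594, and in their S226A littermates, in the same order of litters, at 1090, 898, 1035 and 980 normalized counts. The groups did not overlap, and the mutant was the lower one in 4 of 4 litters. The mean fell to 63.1% of wild type, a log2 fold change of -0.67 (SE 0.09, adjusted p = 7.35e-07). The call was kept in all 8 fits that left out 1 library. The gene (ENSMUSG00000055435.6; GRCm38 chr8:115682942-115707794, minus strand) overlaps the antisense gene Gm15655, and the strand setting of the counting is not given in the sources used here, so that reads of the pair cannot be told apart.

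Zeb2 fell by less, and with little spread. The wild-type livers held 5195, 4657, 4859 and 4768, and the S226A livers 3949, 4307, 3780 and 4180 normalized counts. Again the groups did not overlap and the mutant was lower in 4 of 4 litters. The log2 fold change was -0.26 (SE 0.06, adjusted p = 0.00192), with the mean at 83.2% of wild type. The call was kept in all 8 fits that left out 1 library. Zeb2 (ENSMUSG00000026872.17; chr2:44983632-45117395, minus strand) overlaps the antisense gene Zeb2os.

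Spic had the largest fold change of the 9 and a wide spread. It was counted at 505, 627, 516 and 623 in wild-type livers and at 284, 435, 130 and 241 in S226A livers, on 71 to 344 reads per library. The groups did not overlap, and the litters ranged from a moderate to a steep decrease. The mean fell to 48.0% of wild type (log2 fold change -1.05, SE 0.34, adjusted p = 0.0354). The call was lost in 5 of 8 fits that left out 1 library: without the wild-type liver of litter 2881, the one with squamous transcripts, the adjusted p was 0.0682, without that of litter 2970 it was 0.0726, and without the S226A livers of litters 2972, 2875 and 2970 it was 0.0648, 0.144 and 0.0857. The gene (ENSMUSG00000004359.16) lies at chr10:88674772-88685015 on the minus strand.

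Id3 was the fourth factor whose groups did not overlap, with 623, 509, 542 and 533 normalized counts in wild-type and 446, 482, 329 and 484 in S226A livers. The mutant was lower in 4 of 4 litters, yet the call was not made (log2 fold change -0.34, SE 0.15, adjusted p = 0.135). With the litter as a block, which the pairing of littermates allows, the adjusted p was 0.0356. Over all genes, 5.18% had S226A livers below all wild-type livers. Groups of 4 against 4 libraries that do not overlap always give an exact permutation p of 0.0286 (two-sided), the smallest possible. This value for each of the 4 factors thus restates the separation and adds no evidence.

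The remaining 5 factors did not pass. Runx1, which overlaps the antisense gene Gm26626 and shares the limit given for Maf, was counted at 1301, 1484, 1470 and 1257 in wild-type and 2088, 1525, 1649 and 1472 in S226A livers, higher in 4 of 4 litters but with overlapping groups (log2 fold change 0.29, adjusted p = 0.308). Nr1h3 was at a mean of 1089 ± 82.7 (SD, n = 4) in wild-type and 1066 ± 60.7 (SD, n = 4) in S226A livers, with a 95% interval of the log2 fold change from -0.27 to 0.21. For Id1 the log2 fold change was 0.27 (adjusted p = 0.402), and for Sall1 it was -0.25 (adjusted p = 0.617). Irf7 ranged from 1461 to 3186 among wild-type livers, and the 95% interval of its log2 fold change ran from -0.80 to 0.60.

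**Figure D1:**
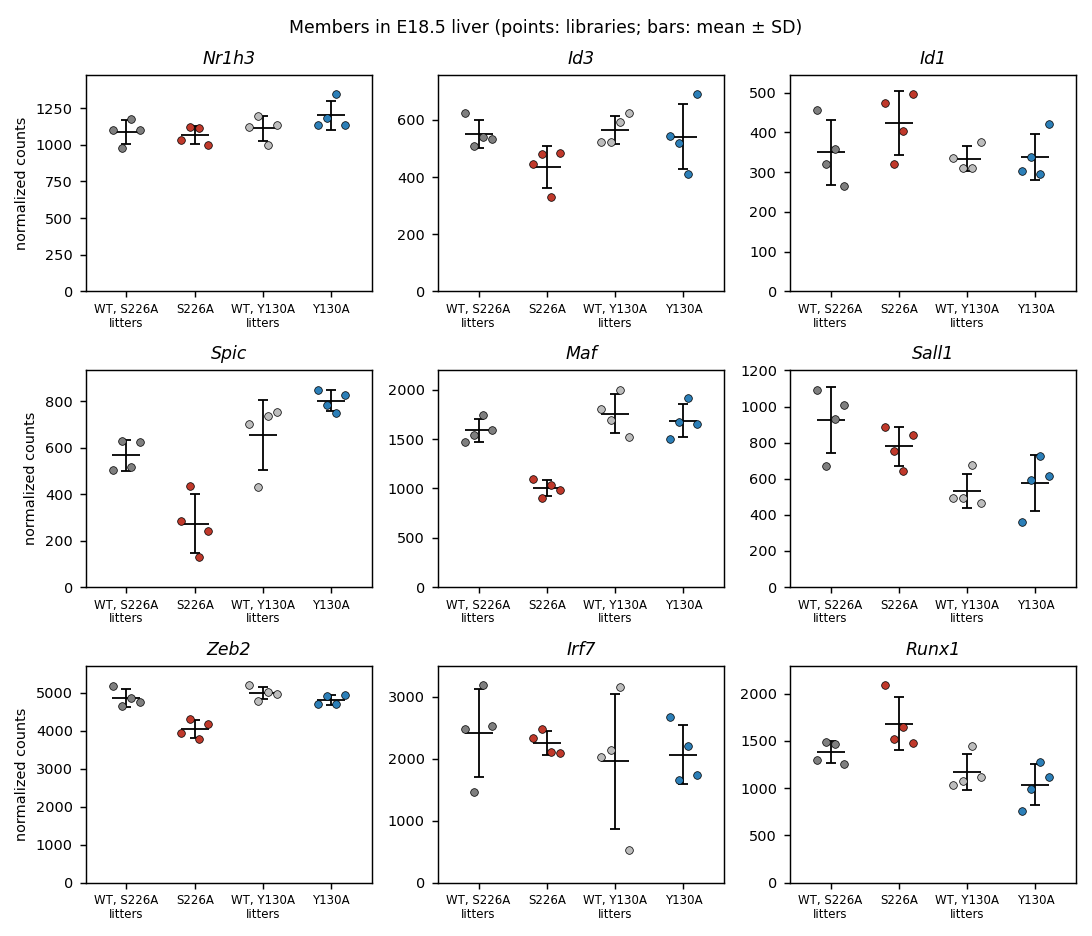
Normalized counts of the 9 factors in each liver library (points), with mean and SD (bars), for the wild-type (WT) livers of the S226A litters, S226A, the wild-type livers of the Y130A litters, and Y130A. The S226A livers lie below all wild-type livers of their litters for Id3, Spic, Maf and Zeb2, and 1 wild-type liver of the Y130A litters stands at 521 for Irf7.

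Promoter sequences are shown for both of the factors that fell and were found in RefSeq's table (GRCm38.p6), and for Irf7 because of its pattern across embryos, described further on. The table held 7 of the 9 factors, without Id1 and Maf. The 250 bases before the outermost transcription start are given 5′ to 3′, with the matches to a searched motif in capitals. The windows lie at chr10:88683024-88683273 (Spic), chr2:45117443-45117692 (Zeb2) and chr7:141266425-141266674 (Irf7), all on the minus strand.
Spic promoter: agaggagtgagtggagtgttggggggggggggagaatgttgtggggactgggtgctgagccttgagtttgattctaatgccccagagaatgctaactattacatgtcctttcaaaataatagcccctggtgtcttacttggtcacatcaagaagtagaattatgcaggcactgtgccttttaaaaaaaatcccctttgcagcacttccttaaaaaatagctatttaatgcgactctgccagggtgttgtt
Zeb2 promoter: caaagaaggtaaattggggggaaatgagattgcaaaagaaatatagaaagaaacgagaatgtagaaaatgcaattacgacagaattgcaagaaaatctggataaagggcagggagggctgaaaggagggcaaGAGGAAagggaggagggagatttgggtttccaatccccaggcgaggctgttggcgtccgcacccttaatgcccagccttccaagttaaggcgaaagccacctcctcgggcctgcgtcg
Irf7 promoter: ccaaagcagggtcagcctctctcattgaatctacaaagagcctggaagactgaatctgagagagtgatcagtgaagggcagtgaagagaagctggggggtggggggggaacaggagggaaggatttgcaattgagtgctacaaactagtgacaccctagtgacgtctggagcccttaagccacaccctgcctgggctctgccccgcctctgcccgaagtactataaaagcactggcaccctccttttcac
The motifs were searched on both strands in 32851 windows of this length. The ETS core GAGGAA was found in 23.3% of them, the RUNX motif ACCACA in 14.0%, the E-box CAGCTG in 4271 of the windows, the GC-rich SMAD motif GGCGCC in 9.59%, the AP-1 motif TGAGTCA in 4.46%, the interferon element GAAANNGAAA in 2.98%, and the LXR direct repeat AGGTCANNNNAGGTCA in 0.0152%. Among the outermost windows, that of Zeb2 held 1 ETS core, starting 118 bases before the start site. Those of Spic, Irf7, Sall1 and Runx1 held none of these letters. That of Id3 held 2 ETS cores, 208 and 201 bases before its start, and that of Nr1h3 the SMAD motif, 119 bases before its start. Inner windows of Zeb2, some of which overlap, held the ETS core 16, 42 and 211 bases before their starts. The last of these also held the AP-1 motif, at 189 and 132 bases. Inner windows of Sall1 held the SMAD motif, 137 and 22 bases before their starts. An inner window of Runx1 held the ETS core at 46 bases, and 1 of Nr1h3 the SMAD motif at 200 bases.

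Beside the decreases of Maf, Zeb2 and Spic, marker lists of macrophages moved unequally. The counts below stand beside the 11.7% of all genes that passed and the 5.54% that passed as lower. No result about alveolar macrophages or endothelium is drawn from their counts. All 14 general macrophage markers fell in S226A liver (median log2 fold change -1.55), among them the receptor gene Csf1r (log2 fold change -1.61, SE 0.07) and the complement gene C1qa (log2 fold change -3.26, SE 0.15). Their summed level was 1087 to 1161 CPM in wild-type and 374 to 462 CPM in S226A livers. Of 10 Kupffer markers 8 fell, among them the lectin gene Clec4f by 8.42 on the log2 scale; the complement receptor gene Vsig4 was at 470 ± 81.0 normalized counts (SD, n = 4) in wild-type livers and at 0 in all 4 S226A livers. Of 10 microglial markers 4 fell, with summed levels of 280 to 348 CPM in wild-type and 283 to 299 CPM in S226A livers. Of 8 markers of alveolar macrophages none fell and 1 rose, the chitinase-like gene Chil3 (log2 fold change 1.78, SE 0.26), which is also among the monocyte markers; the summed levels of the 8 were 167 to 300.0 and 483 to 787 CPM. At the same time 14 of 15 granulocyte markers rose, with summed levels of 3286 to 3922 CPM in wild-type and 9479 to 10267 CPM in S226A livers, as did 6 of 8 monocyte markers. Of 10 endothelial markers 2 fell (Cdh5 and Pecam1), with summed levels of 970 to 1046 CPM in wild-type and 680 to 873 CPM in S226A livers. Of 9 B lineage markers 5 fell, among them Pax5 by 1.05 on the log2 scale. Cdh5 is also a Kupffer marker, and Cx3cr1 is in both the macrophage and the microglial list, so the counts of these lists share genes. The median log2 fold change of the 8 hepatocyte markers was -0.11. The part of these cell types in the changes of the 9 factors was not tested.

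Among relatives of the 9 factors, the shares that passed were read against the 11.7% of all genes, and nothing particular to the relatives is drawn from them. Of 14 paralogs 1 rose and 2 fell: the ETS gene Spib fell by 1.71 and Nrl by 3.88 on the log2 scale, and Runx2 rose (log2 fold change 1.12, SE 0.30). Nrl was below 14 normalized counts on average in either group. Of 12 genes for binding partners 2 fell, both of them E proteins, which ID proteins bind: Tcf4 by 0.52 and Tcf12 by 0.19 on the log2 scale. Of 27 other transcription factors of macrophages 1 rose and 1 fell. Spi1, which encodes PU.1, rose from 668 ± 93.1 to 1231 ± 96.5 normalized counts (SD, n = 4 each; log2 fold change 0.88, SE 0.17, adjusted p = 0.00021), while Irf4 fell from 560.1 ± 53.8 to 164 ± 62.4 normalized counts (SD, n = 4 each; log2 fold change -1.76, SE 0.39, adjusted p = 0.00147). The median log2 fold change over the 27 was 0.01.

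Genes downstream of the 9 factors were read by pathway, beside the 11.7% of all genes that passed and the 5.54% that passed as lower. Of 15 targets of LXR 4 fell: Cd5l, a secreted scavenger receptor protein of macrophages, from 4644 ± 667 to 1480 ± 418 normalized counts (SD, n = 4 each; log2 fold change -1.65, SE 0.25), the phospholipid transfer gene Pltp by 1.29, the efferocytosis receptor gene Mertk by 0.68 and Arl4c by 0.44 on the log2 scale. Cd5l and Mertk are also macrophage or Kupffer markers. Of 12 haem and iron genes, which include targets of Spic, 4 fell and 1 rose. Cd163 and Slc40a1 of this list are also macrophage or Kupffer markers. The scavenger receptor gene Cd163 fell by 5.33, Vcam1 by 0.69, Hmox1, which encodes the haem-degrading enzyme, by 0.61, and the iron exporter gene Slc40a1 by 0.55 on the log2 scale, while the ferritin gene Ftl1 rose (log2 fold change 0.42, SE 0.10). Of 20 genes of the BMP and SMAD pathway, which induces Id1 and Id3, 1 fell: the ligand gene Bmp2, by 0.72 on the log2 scale. Of 20 interferon-stimulated genes Bst2 rose (log2 fold change 0.81, SE 0.22) and Ifit2 fell by 0.80 on the log2 scale. The counts of the BMP and interferon lists are at or near the share of all genes and are no result about those pathways.

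In S226A lung 1 of 9 factors passed, against 1.88% of all genes, and it was Spic, with higher counts. The call rested on few reads and lay at the threshold. The wild-type lungs held 0, 7, 4 and 1 reads, or 0.0, 9.30, 5.92 and 1.62 normalized counts, and the S226A lungs 2, 17, 18 and 28 reads, or 2.44, 23.4, 24.8 and 34.2 normalized counts. The mutant was the higher one in 4 of 4 litters, although the groups overlapped (log2 fold change 2.26, SE 0.63, adjusted p = 0.0499756). The call was lost in 6 of 8 fits that left out 1 library (adjusted p up to 0.176) and without the filter on low counts (adjusted p = 0.0587). When only the libraries compared were used, the gene did not pass the filter. Even the highest of these lungs stayed under all livers. Of the 15 LXR targets 1 passed in lung, and the summed level of the list was 3225 to 4055 CPM in wild-type and 3008 to 4059 CPM in S226A lungs. That gene, Cd5l, rose from 11.7 ± 9.75 to 47.2 ± 23.7 normalized counts (SD, n = 4 each; adjusted p = 0.0412). Of the 12 haem and iron genes 2 rose, Hmox1 and Slc40a1 (log2 fold changes 0.82 and 0.57), and 1 fell, Cd163, by 1.37 on the log2 scale. Of 10 endothelial markers 1 rose, Stab2 (log2 fold change 0.90).

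Runx1 in lung was counted at 1176, 831, 1662 and 1774 in wild-type and 908, 862, 1095 and 926 in S226A embryos. The wild-type lungs differed among themselves by more than the S226A lungs, and the groups overlapped (log2 fold change -0.52, SE 0.17, adjusted p = 0.105). The highest of them, at 1774, was embryo 9 of litter 2970. The study called 1 wild-type lung of these litters a possible outlier for transposable elements, under a label that differs from this embryo's by exchanged digits. It passed in 1 of 8 fits that left out 1 library, the one without the wild-type lung of litter 2881, which was the lowest (adjusted p = 0.00603); in the other 7 the adjusted p was up to 0.446, and it passed in 0 of 5 other alternatives (adjusted p from 0.0638 to 0.738). Maf had a log2 fold change of -0.19 (adjusted p = 0.259), and the other 6 factors lay between -0.51 (Sall1, on 12 reads or fewer per lung) and -0.03 (Nr1h3). Of all genes, 1.88% passed in these lungs. Of 14 macrophage markers 5 fell there, with summed levels of 428 to 541 CPM in wild-type and 368 to 427 CPM in S226A lungs. Of 15 granulocyte markers 8 rose, with summed levels of 39.8 to 85.8 CPM in wild-type and 155 to 209 CPM in S226A lungs. Of 27 other macrophage factors 2 fell, Atf3 by 1.27 and Tfec by 1.22 on the log2 scale.

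In S226A brain none of the 9 factors passed with edgeR or DESeq2, against 0.243% of all genes with edgeR. At an unadjusted p below 0.05 there were 2, against 2.27% of all genes: Nr1h3, with 37.3, 55.3, 68.7 and 42.7 normalized counts in wild-type and 48.6, 29.99, 40.8 and 31.7 in S226A brains, and Runx1, with 21.1, 32.0, 23.9 and 47.1 in wild-type and 19.6, 16.1, 26.0 and 15.9 in S226A brains. Both had overlapping groups, and log2 fold changes of -0.43 (SE 0.17) and -0.68 (SE 0.29). Sall1, the factor of microglia, was at 307 to 381 in wild-type and 268 to 360 in S226A brains (95% interval of the log2 fold change -0.65 to 0.37). In the same brains 6 of 10 microglial markers fell, among them the fractalkine receptor gene Cx3cr1 by 2.21 (SE 0.20) and the purinergic receptor gene P2ry12 by 2.16 (SE 0.33) on the log2 scale. Of 14 macrophage markers 7 fell, with summed levels of 217 to 226.2 CPM in wild-type and 140 to 161 CPM in S226A brains. Cx3cr1 is in both lists, so their counts share this gene. Spic had at most 6 reads in any brain of these litters.

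In Y130A embryos none of the 9 factors passed in liver, lung or brain with edgeR or DESeq2, and none had an unadjusted p below 0.05 with edgeR. Among all genes 0.272%, 0.0178% and 0.00592% passed in the 3 tissues, and 9.22%, 2.92% and 2.22% had an unadjusted p below 0.05. In liver, Maf was counted at 1524, 1804, 1696 and 1999 in wild-type embryos and, in the same order of litters, at 1505, 1674, 1913 and 1652 in Y130A embryos, with a 95% interval of the log2 fold change from -0.23 to 0.11. Zeb2 was lower in 4 of 4 litters, at 96.4% of the wild-type mean, with overlapping groups and an interval from -0.17 to 0.06. Spic was at 753, 702, 431 and 734 in wild-type and 849, 783, 747 and 825 in Y130A livers, higher in 4 of 4 litters, with an interval from -0.35 to 0.93. Summed macrophage markers were at 1266 to 1440 CPM in wild-type and 1196 to 1340 CPM in Y130A livers (median log2 fold change of the 14 genes -0.04).

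**Figure D2:**
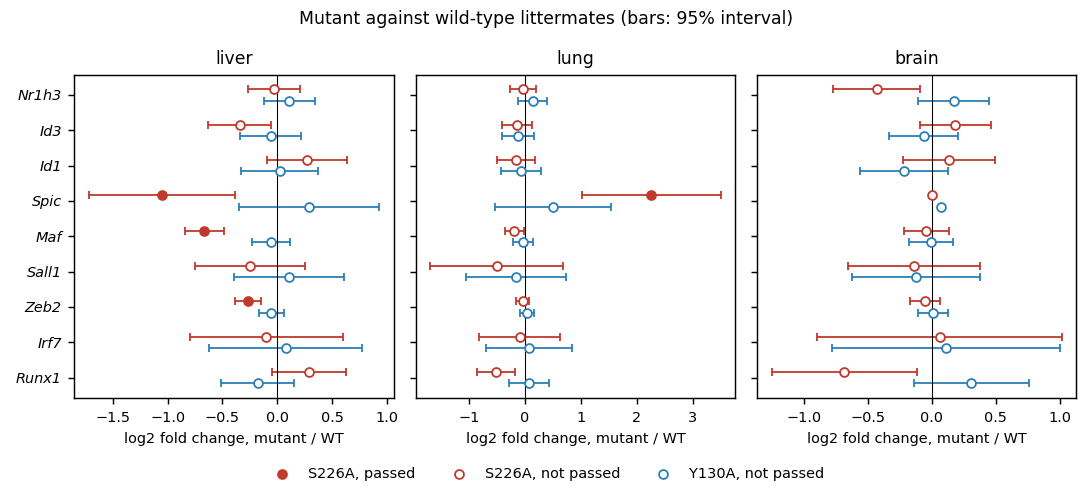
Log2 fold change of each factor in mutants over wild-type littermates, with the 95% interval from the SE (bars), in liver, lung and brain; filled points passed at an adjusted p below 0.05. Filled points are Spic, Maf and Zeb2 in S226A liver and Spic in S226A lung; no interval is drawn for Spic in brain, where each library held fewer than 10 reads.

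The difference between both mutants' effects was tested as an interaction. In liver it passed for 1 of the 9, Maf, whose log2 fold change was lower by 0.61 in S226A than in Y130A (interaction -0.61, SE 0.13, adjusted p = 0.00167), against 5.9% of all genes. For Spic it was -1.34 (SE 0.47, adjusted p = 0.0858; with the litter as a block 0.0132), and for Zeb2 -0.21 (SE 0.08, adjusted p = 0.145). In lung and brain none of the 9 passed with edgeR or DESeq2, against 0.308% and 0.0829% of all genes; 2 in each tissue had an unadjusted p below 0.05, against 9.8% and 2.29% of all genes. Since the litters of both mutants were sequenced at different depths, mutation and litter set cannot be told apart in the interaction beyond what the wild-type littermates take up. The lost binding and the opposite changes in Daxx protein cannot be told apart either.

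Between wild-type tissues 7 or 8 of the 9 factors differed in each comparison, close to the share of all genes (73.3% to 83.3%). Levels between genes are given as CPM per kb of exon, as mean ± SD over the wild types of both litter sets (8 livers, 7 lungs and 8 brains). Spic was almost only found in liver, at 5.39 ± 1.04, against 0.0489 ± 0.0376 in lung and 0.0186 ± 0.0207 in brain. Sall1 was at 4.68 ± 1.61 in liver and 2.37 ± 0.243 in brain, and near 0 in lung (0.0646 ± 0.0363). Its level in liver differed between the litter sets, at 5.95 ± 1.18 in the S226A litters and 3.42 ± 0.620 in the Y130A litters (n = 4 each), and the difference from brain passed in the former (log2 fold change 1.42, adjusted p = 5.73e-06) and not in the latter (log2 fold change 0.44, adjusted p = 0.108); whether the tissue difference itself differed between the sets was not tested. Nr1h3 was at 14.8 ± 1.05 in liver and 16.01 ± 0.784 in lung, and at 0.680 ± 0.148 in brain. Irf7 fell from liver (19.6 ± 7.94) over lung (4.50 ± 2.59) to brain (0.421 ± 0.191). Runx1 was at 3.58 ± 0.516 in liver, 3.04 ± 1.31 in lung and 0.0771 ± 0.0257 in brain. Its lung level was 3.83 ± 1.23 (n = 4) in the S226A litters and 1.99 ± 0.0296 (n = 3) in the Y130A litters, and liver and lung differed by the test in the latter (log2 fold change 0.73, adjusted p = 0.000643) and not in the former (log2 fold change 0.02, adjusted p = 0.935), again with no test of the difference between the sets.

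Another pattern was found for both ID genes, which were highest in lung: Id1 was at 39.2 ± 5.36 and Id3 at 33.5 ± 7.47 there, against 9.98 ± 1.68 and 10.5 ± 0.882 in liver and 11.01 ± 2.501 and 10.8 ± 1.18 in brain. Zeb2 was higher in lung (21.0 ± 0.936) and brain (19.5 ± 1.56) than in liver (8.37 ± 0.339). Maf was at 9.27 ± 1.23 in lung, 6.86 ± 0.719 in liver and 3.34 ± 0.309 in brain. In the S226A litters 7, 7 and 8 of the 9 differed between liver and lung, liver and brain, and lung and brain, against 73.7%, 82.5% and 78.7% of all genes. In the Y130A litters it was 8, 7 and 8, against 73.3%, 83.3% and 76.9%, shares close to those of the 9 factors. The difference of Maf between liver and lung in the Y130A litters was not kept without the lung of litter 2851 (adjusted p = 0.0761), nor was that of Spic between lung and brain (adjusted p = 0.0645). The difference of Id1 between liver and brain in the Y130A litters was lost in 3 of 8 fits that left out 1 library, with an adjusted p of at most 0.0547.

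**Figure D3:**
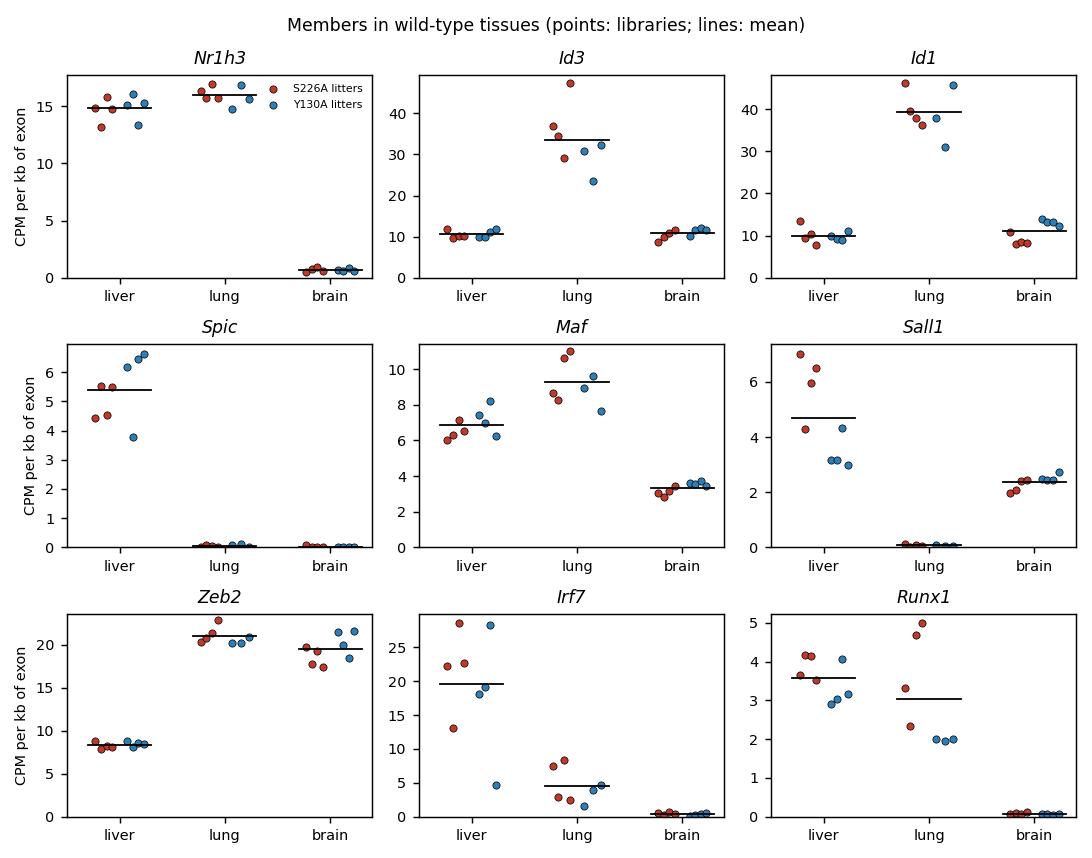
CPM per kb of exon of the 9 factors in each wild-type liver, lung and brain (points, coloured by litter set), with the mean of each tissue (lines). Spic is near 0 outside liver and Sall1 near 0 in lung, while Nr1h3, Irf7 and Runx1 are lowest in brain.

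Within a tissue, neighbours in the order of levels often overlapped. In liver the order from the highest mean was Irf7, Nr1h3, Id3, Id1, Zeb2, Maf, Spic, Sall1 and Runx1; of the 8 neighbouring pairs only Nr1h3 and Id3 had ranges that did not overlap, and Spic was above Sall1 in 5 of 8 livers. The litter sets ranked these last-named genes in opposite order, with mean levels of 5.00 for Spic and 5.95 for Sall1 in the S226A litters and of 5.77 and 3.42 in the Y130A litters. In lung Id1 and Id3 overlapped at the top, and Id3, Zeb2, Nr1h3 and Maf followed with separate ranges. In brain Zeb2 stood above Id1 in 8 of 8 libraries, Id1 and Id3 overlapped and were ranked in opposite order by the litter sets (8.85 and 10.3 in the S226A litters, 13.2 and 11.4 in the Y130A litters), and Maf and Sall1 followed with separate ranges.

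The wild types of both litter sets, which differ in parents and depth but carry no mutation, were compared as a control. In liver 1 of the 9 passed, against 13.1% of all genes: Sall1, at 1093, 668, 930 and 1011 normalized counts in the S226A litters and 493, 495, 675 and 465 in the Y130A litters (log2 fold change of the Y130A over the S226A litters -0.80, SE 0.26, adjusted p = 0.0342). The call was lost in 6 of 8 fits that left out 1 library, with adjusted p up to 0.0993. In lung Runx1 passed, against 20.1% of all genes, with 713, 695 and 713 in the Y130A litters (log2 fold change -0.94, SE 0.19, adjusted p = 0.000346), but not when only the libraries compared were fitted (adjusted p = 0.0582). These 3 lungs lay below all 4 wild-type lungs of the S226A litters. In brain Id1 passed, against 5.98% of all genes, at 368, 274, 292 and 279 in the S226A litters and 479, 457, 449 and 421 in the Y130A litters (log2 fold change 0.58, SE 0.18, adjusted p = 0.0461), and this call was lost in 7 of 8 fits that left out 1 library. Litter set and depth cannot be told apart here.

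Irf7 (ENSMUSG00000025498.15; GRCm38 chr7:141262706-141266481, minus strand) varied widely between wild-type embryos. It overlaps the protein-coding gene Phrf1 on the opposite strand, and reads of the pair cannot be told apart. Its coefficient of variation among wild-type livers was 29.5% in the S226A litters and 55.5% in the Y130A litters, against 4.76% and 3.34% for Zeb2. Among S226A embryos that of Irf7 was lower, at 8.398% in liver, 13.4% in lung and 5.04% in brain, and among Y130A embryos it was 22.9%, 30.4% and 29.9% in the same order; the difference in spread was not tested. Wild-type embryo 4 of litter 2848 held 521 normalized counts in liver, 176 in lung and 14.7 in brain, each the lowest of its tissue. Wild-type embryo 5 of litter 2875 held 3186, 938 and 82.2, each the highest. This pattern was chosen after the values were seen. Across embryos with both tissues, deviations from the group means on the log2 scale correlated between liver and lung (Pearson r = 0.854, permutation p = 0.00383, adjusted p = 0.0259; Spearman rho = 0.855, p = 0.00647, adjusted p = 0.0437; n = 14), between liver and brain (r = 0.924, permutation p = 0.00119, adjusted p = 0.0161; rho = 0.803, p = 0.0037, adjusted p = 0.0418; n = 16) and between lung and brain (r = 0.928, permutation p = 0.00092, adjusted p = 0.0161; rho = 0.890, p = 0.00185, adjusted p = 0.0418; n = 14). The tests were two-sided, permuted embryos within groups, and were adjusted over the 27 pairs of gene and tissues. Without the 2 embryos farthest from the median, r was 0.804, 0.853 and 0.866. Within the S226A litters r was 0.894, 0.904 and 0.900, and within the Y130A litters 0.890, 0.942 and 0.954.

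**Figure D4:**
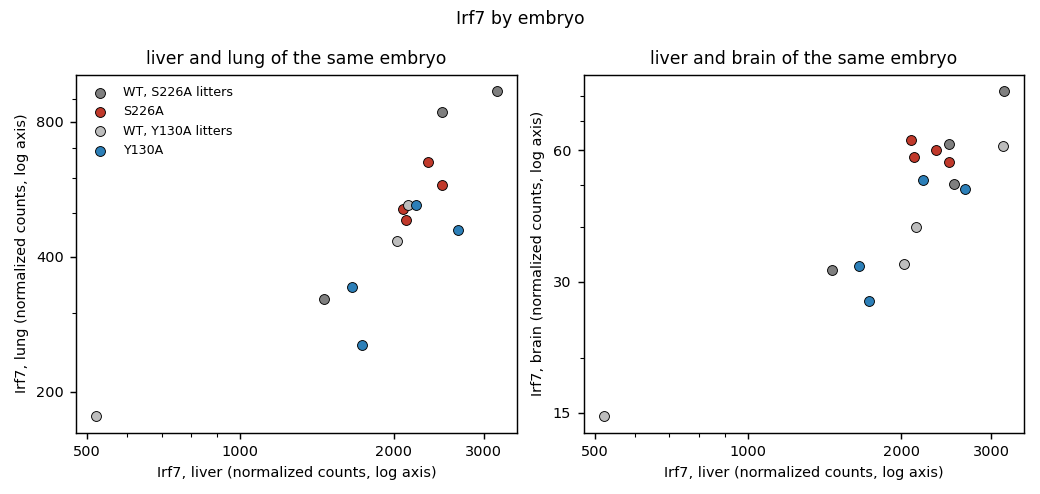
Irf7 in lung (left) or brain (right) against liver of the same embryo, in normalized counts on log axes; each point is 1 embryo, coloured by group. Embryos high in liver are high in the other tissues, from 521 and 176 in the lowest embryo of the liver and lung panel to 3186 and 938 in the highest.

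The interferon-stimulated genes followed the same embryos. Summed over the list of 20 genes, which leaves out Irf7, they reached 440 CPM in liver, 228 CPM in lung and 80.2 CPM in brain of embryo 4 of litter 2848, and 2072, 677 and 135 CPM in embryo 5 of litter 2875, again the lowest and the highest of each tissue. The genes whose log2 values over all 47 libraries, centred on tissue and litter set, were most like Irf7 were Irgm1 (r = 0.901), Ifit3 (r = 0.901), Oasl2 (r = 0.897), Trim30a (r = 0.897) and Parp14 (r = 0.896), all of them interferon-inducible. Libraries of 1 embryo or litter are not independent, so that these values are a description.

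By the same measure Spic was most like Zfp78 (r = 0.776) and Cd5l (r = 0.736), and Maf most like the syndecan gene Sdc3 (r = 0.832) and Clec9a (r = 0.822), a lectin of dendritic cells. The genes most like Zeb2 were Slamf7 (r = 0.727) and Fam167a (r = 0.706), and those most like Runx1 were Sipa1l3 (r = 0.835) and Fbrs (r = 0.825). Weaker values were found for Sall1 with Ammecr1l (r = 0.694), Id3 with Igsf8 (r = 0.646), Id1 with Cemip2 (r = 0.615) and Nr1h3 with Ccm2l (r = 0.615). These correlations include the differences between mutant and wild-type libraries.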

How the data were processed

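RNA was extracted with Trizol from frozen livers, lungs and brains at E18.5 and sequenced with standard Illumina libraries in 47 libraries of 12 groups. The deposited counts are whole numbers of reads per gene, not normalized; per the labels and the study's methods, the authors trimmed reads with Trim Galore 0.6.5, aligned them to GRCm38 with STAR 2.6.0b and counted them per gene. The strand setting is not given in the sources used here. Of 20456 gene IDs 20445 were matched in GENCODE M21, from which positions and exon lengths were taken. Counts were fitted with edgeR 4.0.16 (R 4.3.3; TMM, quasi-likelihood, 1 coefficient per group over all 47 libraries) after removal of low genes with filterByExpr (at its minimum count of 10 and minimum total of 15), with Benjamini-Hochberg adjustment over the remaining 16892 genes. Normalized counts are TMM-scaled CPM at an effective library size of 29553745. The SE was obtained as the absolute log2 fold change over the root of the F statistic. The steps were tested on simulated data. Groups, litters and embryos were taken from the titles. Mutants and wild types of 1 number are littermates: the residuals of 18 of 23 pairs of littermates correlated above 0.1 (median 0.213), against 5 of 69 pairs of other embryos. Replicates were separate embryos.

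The members and gene lists were chosen with earlier results of these data known. Of 2 lists, 1 gene is not reported here. All 9 members were named in each comparison; from each list, up to 4 genes with the largest change among those that passed could be named, and for each member the 5 genes with the highest correlation. Alternatives were DESeq2 1.42.0, RLE size factors, no filter on low counts, fits of only the libraries compared, litter as a block, fits without the livers with squamous transcripts, and fits without each library.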

Additional observations from a re-analysis of the deposited data

Results flagged for a closer look

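In 3 of 99 groups of 4 libraries, 1 library stood apart from the others by Dixon's criterion, which chance meets in about 1 of 20 groups. Spic in the wild-type livers of the Y130A litters was lowest in the embryo of litter 2974, at 431 normalized counts against 702 to 753 in the other 3. Sall1 in wild-type livers of the Y130A litters was highest in litter 3069, at 675 against 465 to 495. Sall1 in wild-type brains of the Y130A litters was highest in the same embryo, at 427 against 378 to 383. The effect of S226A on Maf in liver differed from that of Y130A by -0.61 on the log2 scale (interaction in edgeR's quasi-likelihood test, SE 0.13, adjusted p = 0.00167); Maf was lower in 4 of 4 S226A litters and in 3 of 4 Y130A litters.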

How the results depend on the processing

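No factor changed direction in a comparison in which it passed, under any of the alternatives run. Of all 162 fold changes 45 changed sign under at least 1 alternative, the lowest adjusted p among them in the fit reported being 0.639; Irf7 in S226A lung, for example, went from -0.10 to 0.19 in a fit that left out 1 library. The number of factors that passed in S226A lung went from 1 to 0 without the filter on low counts and to 0 with only the libraries compared, where Spic did not pass the filter, and lay between 0 and 2 in fits that left out 1 library. For the interaction in liver it went from 1 to 2 with DESeq2 (Zeb2 added, adjusted p = 0.0424), with only the libraries compared and with the litter as a block (Spic added, adjusted p = 0.0201 and 0.0132), and lay between 1 and 2 in fits that left out 1 library. Between the wild types of both litter sets it went from 1 to 0 in lung with only the libraries compared (Runx1, adjusted p = 0.0582) and from 1 to 0 in brain with DESeq2, with RLE size factors and without the filter (Id1, adjusted p = 0.0608, 0.103 and 0.0634); without 1 library it lay between 0 and 1 in liver, 1 and 2 in lung and 0 and 1 in brain. The cause was not tested. Spic in S226A liver had an adjusted p of 0.0692 without the livers with squamous transcripts. With the litter as a block, 4 factors passed in S226A liver in place of 3, and no other number of calls between mutants and wild types or between tissues moved, apart from the interaction in liver. Among single factors, 2251 values kept their side of the threshold, 35 lost and 8 gained a call. Spic in lung and brain and Sall1 in lung rested on few reads, at most 28 per library; the part of depth was not tested.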

Other observations

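Among the 27 pairs of factor and tissues, 1 other correlation across embryos passed. Deviations of Id3 from its group means were opposite in liver and brain of the same embryo (Pearson r = -0.70, permutation p = 0.00252, adjusted p = 0.0227; Spearman rho = -0.72, p = 0.00464, adjusted p = 0.0418; n = 16). Without the 2 embryos farthest from the median r was -0.72. Within the Y130A litters r was -0.88, and within the S226A litters it was -0.50 (8 embryos each). The pairs of liver and lung and of lung and brain did not pass for Id3, and the pattern was chosen after the values were seen.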
